A study of Mus musculus with 4 samples.

Results

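The 30 genes described here encode the PI3-kinase, AKT, mTOR and FOXO pathway: PI3-kinase subunits and phosphatases, AKT and its neighbouring kinases, the mTOR complexes with their regulators, and the FOXO transcription factors with some of their targets. They were chosen by symbol, and all 30 had a column among the 17187 genes of the table. Each passed the filter of a mean of 10 normalised reads, so all 30 stood among the 13010 genes tested. The cells were group 2 innate lymphoid cells (ILC2s), tissue lymphocytes that make type 2 cytokines without an antigen receptor, sorted from lungs of BALB/c mice. Both groups were kept in culture for 18 hours after isolation. The isotype group (2 libraries) received an isotype control antibody, and the anti-CD226 group (2 libraries) an antibody to the costimulatory receptor CD226, for which a concentration of 5 µg/mL is given. The wording leaves unclear whether that concentration applies to the control antibody too. The age and sex of the mice, and whether replicates are separate mice or cultures, are not stated in the labels. The p-values here therefore reflect just the spread among these 4 libraries, and that spread may be technical. The deposited table calls the control libraries PBS, and the series' design text speaks of treated mice; the sample labels were followed.

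Class I PI3-kinases pair a catalytic with a regulatory subunit and make the membrane lipid PIP3 below antigen, cytokine and costimulatory receptors. PIP3 brings AKT to PDK1, AKT relieves the brake that the TSC complex sets on RHEB and mTORC1, and mTORC1 drives translation and growth when amino acids are at hand. AKT also phosphorylates FOXO factors, which then leave the nucleus, so transcription of FOXO targets is low while the pathway is active. Much of this control acts on proteins by phosphorylation and location, which transcript levels do not show.

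Values are normalised read counts per library, and the estimated depth was between 12433654 and 17847075 reads a library. All 13 ILC2 markers examined were present in every library, for example Gata3 between 13810 and 17310. Of 11 macrophage markers in the table, the summed level was 304 and 292 under isotype antibody, then 595 and 1928 under anti-CD226. Chil3 (784) and Mmp12 (678) made up most of the sum in anti-CD226 replicate 2. The groups overlapped for Chil3, Csf1r, Adgre1, Ctss and Apoe. For Lyz2, Mmp12, Cd68, Mpeg1, Itgam and Itgax both anti-CD226 libraries were above both isotype libraries, for example Mmp12 at 34.3 and 2.32 against 168 and 678. Of 7 macrophage markers tested, 6 had a higher mean in anti-CD226, against 51.1% of all genes tested, with a median log2 difference of 3.0. The unadjusted p was below 0.05 for 5 of them, and 0 passed the adjustment (limma). In isotype replicate 1 Mpeg1 was at 0, and Chil3, Mpeg1, Itgam and Itgax were at 0 in isotype replicate 2. The part of such transcripts in the results below was not tested. Deviations of genes from their mean over the 4 libraries also went with transcript length, differently in each library. Across 12716 genes Spearman's rho was -0.49 for isotype replicate 2, -0.37 and 0.54 for anti-CD226 replicates 1 and 2, and -0.00014 for isotype replicate 1. These deviations share 1 mean, so they are relative to each other. The 30 genes are long, with a median transcript length of 5234 bases against 2755 over the genes tested, and each difference is therefore also given with that trend removed where it matters.

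No gene of the pathway passed the threshold. Of the 30, 0 had a limma adjusted p below 0.05 (Benjamini-Hochberg over all genes), as did 0% of all genes tested, and their adjusted p lay between 0.982 and 0.997. At an unadjusted p below 0.05 there were 2 of 30, Pik3ca and Akt1, both with higher means in anti-CD226, against 2.37% of all genes tested in either direction and 1.55% in that direction. The isotype and anti-CD226 libraries did not overlap in 10 of 30 (33.3%, against 26.8% of all genes tested). Of these, 6 had both anti-CD226 libraries above (13.8% of all genes) and 4 had both below (13% of all genes). Scaling to equal totals gave 11 (6 above and 5 below, 27.3% of all genes), and scaling to equal upper quartiles gave 13 (6 above and 7 below, 26.9% of all genes), so the balance of higher and lower genes turned with the scaling. A log2 difference above 0 was found in 19 of 30, with 51.1% of all genes as background, and the median log2 difference was 0.079 against 0.0066. A difference of at least 1.5-fold was found in 3 of 30, Pik3ca, Akt1 and Ddit4, and in 7.52% of all genes. In bulk RNA, fewer cells that carry a transcript and less of it per cell cannot be told apart.

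These counts leaned on anti-CD226 replicate 2. Against the isotype mean, the median of the 30 genes was 0.23 on the log2 scale in anti-CD226 replicate 2 against -0.040 for anti-CD226 replicate 1. That library was the highest of the 4 in 16 of 30 genes and the lowest in 9, compared with 37.0% and 37.2% of all genes tested. Without it, 12 of 30 had a higher mean, with a median of -0.040, and the median was also below 0 without isotype replicate 2 (-0.031). Without anti-CD226 replicate 1, 18 of 30 had a higher mean, with a median of 0.23. That fit takes the remaining anti-CD226 library to be as variable as the isotype group. With the length trend removed, 14 of 30 had a higher mean, the median was -0.017 and 9 of 30 groups did not overlap, against 30.1% of all genes on that scale.

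**Figure D1:**
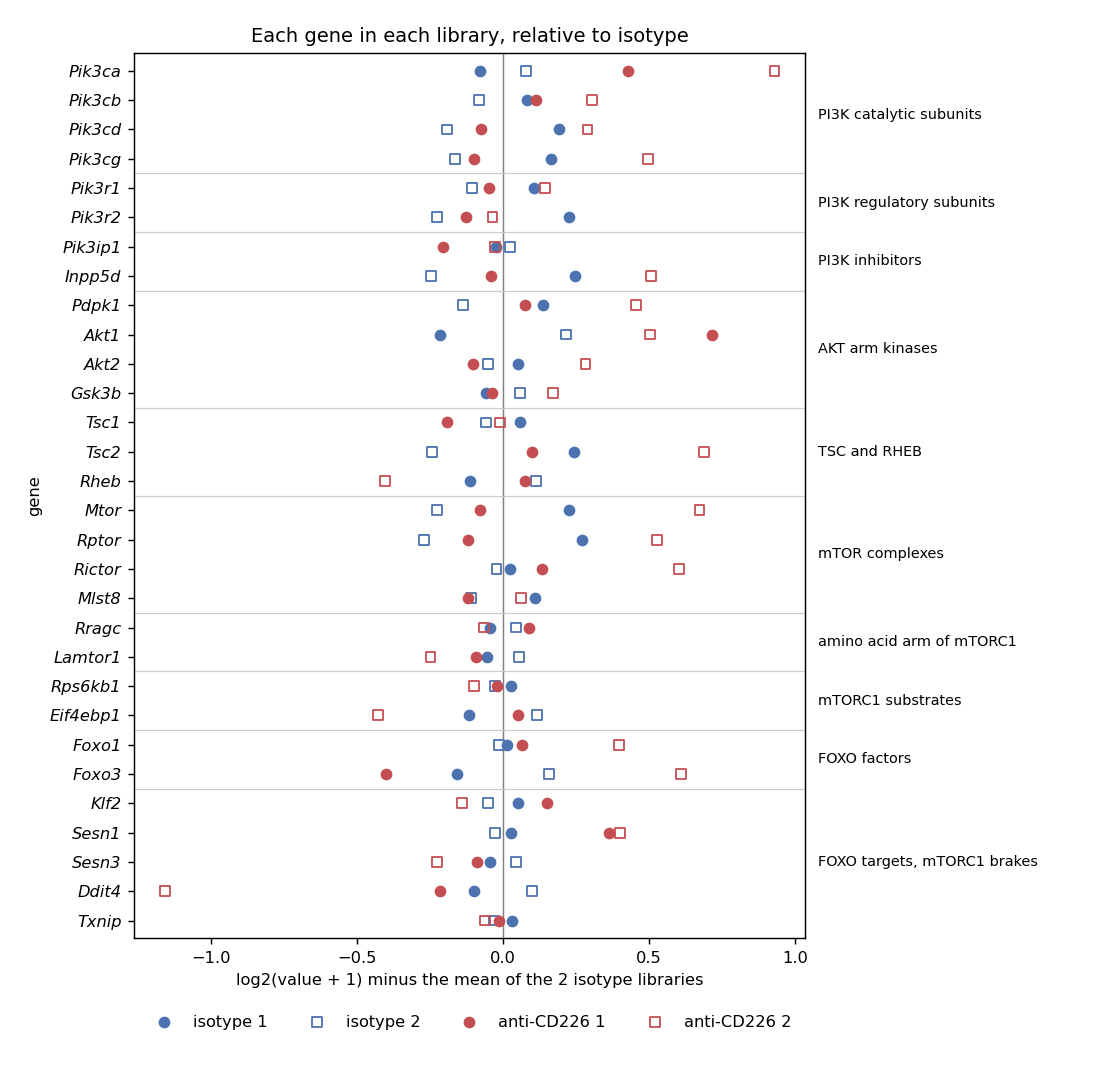
Each of the 30 genes (rows, grouped by role) in each of the 4 libraries, as log2(value + 1) minus the mean of the isotype libraries; filled and open symbols are replicates 1 and 2. Anti-CD226 replicate 2 (open red squares) lies farthest from 0 for many genes, from Ddit4 on the left to Pik3ca on the right, while both Sesn1 points of that group lie close together.

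Of the catalytic subunits, Pik3ca had the largest difference between the group means. Pik3ca, which encodes the broadly expressed alpha catalytic subunit, lies on chromosome 3 from 32397671 to 32468486 (GRCm38, plus strand). It stood at 543 and 605 normalised reads under isotype antibody (replicates 1 and 2), then 771 and 1092 under anti-CD226 (replicates 1 and 2, the order used throughout). Both anti-CD226 libraries were above both isotype libraries, and they differed from each other by more than the isotype libraries did. The means were 574 ± 44.1 and 932 ± 227 (SD, n = 2 each), a 1.60-fold difference on the log2(value + 1) scale. The log2 difference was 0.68 (limma, SE 0.21, unadjusted p = 0.013, adjusted p = 0.98). Leaving out anti-CD226 replicate 2 gave 0.43, leaving out replicate 1 gave 0.93, and it was 0.48 with the length trend removed.

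The leukocyte subunits carried most of the catalytic transcripts. Pik3cd, the delta subunit that acts below antigen and cytokine receptors of lymphocytes, stood at 5968 and 4577 under isotype antibody, then 4956 and 6387 under anti-CD226. Pik3cg, the gamma subunit used by G protein-coupled receptors, stood at 3622 and 2889 under isotype antibody, then 3021 and 4565 under anti-CD226. For both genes the groups overlapped, with anti-CD226 replicate 2 the highest and isotype replicate 2 the lowest library. Pik3cb, the broadly expressed beta subunit, stood at 292 and 260 against 298 and 340, groups that did not overlap but lay within 1.16-fold of each other on average. Per kilobase of transcript, Pik3cd made up 60.5% ± 2.07 of the 4 catalytic transcripts (SD over the 4 libraries). The shares were 32.4% ± 1.49 for Pik3cg, 4.56% ± 1.04 for Pik3ca and 2.52% ± 0.226 for Pik3cb. That order was the same in each of the 4 libraries. The share of Pik3ca was 3.14% and 4.43% under isotype antibody, then 5.23% and 5.44% under anti-CD226.

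Regulatory subunits differed less. Pik3r1, which encodes the main regulatory subunit of lymphocytes, stood at 1241 and 1071 under isotype antibody, then 1116 and 1274 under anti-CD226. Pik3r2, its paralog, stood at 654 and 478 against 512 and 546. The anti-CD226 values of Pik3r2 lay inside the isotype range, and the limma interval of the Pik3r1 log2 difference ran from -0.36 to 0.46 (95%). Per kilobase the levels of both genes were alike, 165 ± 13.7 for Pik3r1 and 173 ± 24.1 for Pik3r2, a gap within their SD over the 4 libraries.

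Of the inhibitors, Inpp5d encodes SHIP1, the phosphatase of blood cells that removes the 5-phosphate of PIP3, and Pik3ip1 a membrane protein that restrains the catalytic subunit. Inpp5d stood at 4662 and 3315 under isotype antibody, then 3818 and 5583 under anti-CD226, with groups that overlapped. Pik3ip1 stood at 59.7 and 61.8 against 52.5 and 59.5, so both anti-CD226 libraries were lower, one of them by less than the value of 1 read (1.11 and 1.10 in the libraries concerned). Its values rest on 54 and 80 reads, then 51 and 54, a gap smaller than counting error. Per kilobase Inpp5d had 880 ± 202 normalised reads and Pik3ip1 22.7 ± 1.57.

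In the AKT arm, the largest difference between the group means was that of Akt1. Akt1, on chromosome 12 from 112653821 to 112674884 (GRCm38, minus strand), encodes a kinase of growth and survival. It stood at 3291 and 4435 normalised reads under isotype antibody, then 6269 and 5421 under anti-CD226. Both anti-CD226 libraries were above both isotype libraries, with the higher value in anti-CD226 replicate 1. The means were 3863 ± 809 and 5845 ± 599 (SD, n = 2 each), a log2 difference of 0.61 (limma, SE 0.20, unadjusted p = 0.015, adjusted p = 0.98). It was 0.71 without anti-CD226 replicate 2, 0.39 without isotype replicate 1, 0.82 without isotype replicate 2 and 0.60 with the length trend removed. Akt2, the paralog best known for insulin responses, stood at 1873 and 1747 against 1686 and 2201, with groups that overlapped. Per kilobase Akt1 exceeded Akt2 in each library, 2.97-fold and 4.29-fold under isotype antibody, then 6.28-fold and 4.16-fold under anti-CD226. The overlap of these ratios gave an exact two-sided permutation p of 0.667, where 2 libraries against 2 can reach 0.333 at best.

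Pdpk1, which encodes the AKT activator PDK1, stood at 1912 and 1581 under isotype antibody, then 1833 and 2383 under anti-CD226. Gsk3b, a kinase that AKT inhibits, stood at 880 and 955 against 893 and 1033. In both genes anti-CD226 replicate 1 lay within the isotype range and anti-CD226 replicate 2 above it. With the length trend removed the log2 difference of Gsk3b turned from 0.067 to -0.13, and that of Pdpk1 went from 0.27 to 0.087. The value of Pdpk1 was 0.076 when anti-CD226 replicate 2 was left out, 0.13 when isotype replicate 2 was, and at most 0.45 when any 1 library was.

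Between AKT and mTORC1 stands the TSC complex, a GTPase-activating brake on the small GTPase RHEB. Tsc1, the scaffold of the complex, stood at 367 and 338 under isotype antibody, then 308 and 349 under anti-CD226. Tsc2, its catalytic subunit, stood at 896 and 639 against 811 and 1220. Tsc2 shares 693 exonic bases with Pkd1 on the opposite strand, a gene at 640, 493, 455 and 784 in the same order of libraries, and without a stated use of strand their reads cannot be told apart there. The ratio of Tsc1 to Tsc2 per kilobase was 0.321 and 0.414 under isotype antibody, then 0.298 and 0.225 under anti-CD226. These ratios did not overlap (exact permutation p = 0.333, the smallest that this design allows, and 0.75 when adjusted over the 9 ratios computed). The log2 change in this ratio was -0.50, and leaving out anti-CD226 replicate 2 or isotype replicate 2 gave -0.29 and -0.31. Rheb, the activator of mTORC1, stood at 1672 and 1959 against 1907 and 1369, anti-CD226 replicate 2 being the lowest library.

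Among the mTOR complexes, Rictor of mTORC2 was the gene whose groups did not overlap. Rictor, the subunit that lets mTORC2 phosphorylate AKT, stood at 746 and 723 under isotype antibody, then 806 and 1115 under anti-CD226. The log2 difference was 0.37 (limma, SE 0.20, unadjusted p = 0.11, adjusted p = 0.98), 0.13 without anti-CD226 replicate 2 and 0.16 with the length trend removed. Mtor, the kinase of both complexes, stood at 782 and 572 against 633 and 1067. Rptor, the substrate-binding subunit of mTORC1, stood at 933 and 641 against 712 and 1115. Mtor and Rptor thus shared 1 order of libraries: anti-CD226 replicate 2, isotype replicate 1, anti-CD226 replicate 1, isotype replicate 2. This order was seen in 8 of the 30 genes (Pik3cd, Pik3cg, Pik3r1, Inpp5d, Pdpk1, Tsc2, Mtor and Rptor) and in 13.7% of all genes tested, and it was singled out after the values were seen. Mlst8, a subunit shared by both complexes, stood at 546 and 468 against 465 and 528. The gene has 997 exonic bases in common with Bricd5 on the opposite strand.

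The nutrient arm places mTORC1 on the lysosome, where the Rag GTPases and the Ragulator complex receive it. Lamtor1, the membrane anchor of Ragulator, lies on chromosome 7 from 101905904 to 101926675 (GRCm38, plus strand). It stood at 1224 and 1318 under isotype antibody, then 1192 and 1069 under anti-CD226, both lower than either isotype library. The log2 difference was -0.17 (limma, 95% interval from -0.56 to 0.22) and became -0.022 with the length trend removed and -0.091 when anti-CD226 replicate 2 was left out. Its transcript, at 1119 bases, is the shortest of the 30. Lamtor1 shares 600 exonic bases with Lrrc51 on the opposite strand, a gene with at most 23.6 normalised reads in a library. Rragc, which encodes the GTPase RagC, stood at 1594 and 1696 against 1749 and 1571, and the sign of its log2 difference of 0.012 turned under quantile normalization and under scaling to equal upper quartiles.

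For both substrates of mTORC1 the groups overlapped on the deposited scale, though both anti-CD226 libraries of Rps6kb1 were below under scaling to equal totals or upper quartiles. Rps6kb1, the kinase S6K1 that phosphorylates ribosomal protein S6, stood at 960 and 923 under isotype antibody, then 929 and 878 under anti-CD226. Rps6kb1 shares 155 exonic bases with Rnft1 on the opposite strand, a gene between 918 and 1132 normalised reads. Eif4ebp1, which holds back cap-dependent translation until mTORC1 phosphorylates it, stood at 2037 and 2392 against 2290 and 1641. The anti-CD226 libraries of Eif4ebp1 lay on either side of isotype replicate 1. Its log2 difference was -0.19, with an interval from -0.67 to 0.29 (limma, 95%).

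FOXO factors were unequal in level. Foxo1, the main FOXO factor of lymphocytes, stood at 778 and 762 under isotype antibody, then 805 and 1014 under anti-CD226, groups that did not overlap. Foxo3 stood at 80.7 and 100.4 against 68.0 and 138, and its anti-CD226 libraries enclosed the isotype range. Per kilobase Foxo1 exceeded Foxo3 7.62-fold and 5.99-fold under isotype antibody, then 9.36-fold and 5.82-fold under anti-CD226. The log2 difference of Foxo1 was 0.23 (limma, 95% interval from -0.20 to 0.66) and 0.031 with the length trend removed. Its value became 0.065 when anti-CD226 replicate 2 was left out and 0.40 when replicate 1 was.

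Of 5 FOXO targets and brakes on mTORC1, 2 had a higher and 3 a lower mean in anti-CD226. Sesn1, on chromosome 10 from 41809935 to 41908424 (GRCm38, plus strand), encodes a sestrin, a leucine-sensitive brake on mTORC1 whose gene FOXO and p53 can induce. It stood at 413 and 397 under isotype antibody, then 521 and 536 under anti-CD226. The gap between the groups was larger than the spread within either, 405 ± 11.4 against 528 ± 10.4 (SD, n = 2 each). The values rest on 374 and 514 reads, then 506 and 486, and both SDs are smaller than the counting error of such reads. The closeness of the replicates therefore understates the error. The log2 difference was 0.38 (limma, SE 0.17, unadjusted p = 0.061, adjusted p = 0.98). Leaving out each library in turn kept it between 0.35 and 0.41, and removal of the length trend left 0.38. The paralog Sesn3 stood at 540 and 574 against 524 and 476, both anti-CD226 libraries below. The ratio of Sesn1 to Sesn3 per kilobase was 2.68 and 2.43 under isotype antibody, then 3.49 and 3.95 under anti-CD226, without overlap (exact permutation p = 0.333, 0.75 when adjusted over the 9 ratios).

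Ddit4 differed in the other direction. Its product REDD1 restrains mTORC1 through the TSC complex under hypoxia, energy stress and glucocorticoids. The gene, on chromosome 10 from 59949669 to 59951834 (GRCm38, minus strand), stood at 713 and 819 under isotype antibody, then 658 and 342 under anti-CD226. Both anti-CD226 libraries were below both isotype libraries, replicate 1 by little and replicate 2 by much. The means were 766 ± 75.1 and 500 ± 224 (SD, n = 2 each), a log2 difference of -0.69 (limma, SE 0.30, unadjusted p = 0.0501, adjusted p = 0.98). Leaving out anti-CD226 replicate 2 gave -0.22, leaving out replicate 1 gave -1.16, and it was -0.61 with the length trend removed.

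Klf2 and Txnip, which FOXO factors can also induce, were nearly level. Klf2, a transcription factor of quiescence and recirculation, stood at 170 and 158 under isotype antibody, then 182 and 149 under anti-CD226. Txnip, which binds thioredoxin and limits glucose uptake, stood at 2049 and 1961 against 1987 and 1921. The log2 difference of Txnip was -0.037 with an interval from -0.40 to 0.33 (limma, 95%), and that of Klf2 was 0.0043 with a sign that turned to minus under scaling to equal totals or upper quartiles. Txnip shares 606 exonic bases with Gm15441 on the opposite strand, which had at most 6.57 normalised reads in a library.

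**Figure D2:**
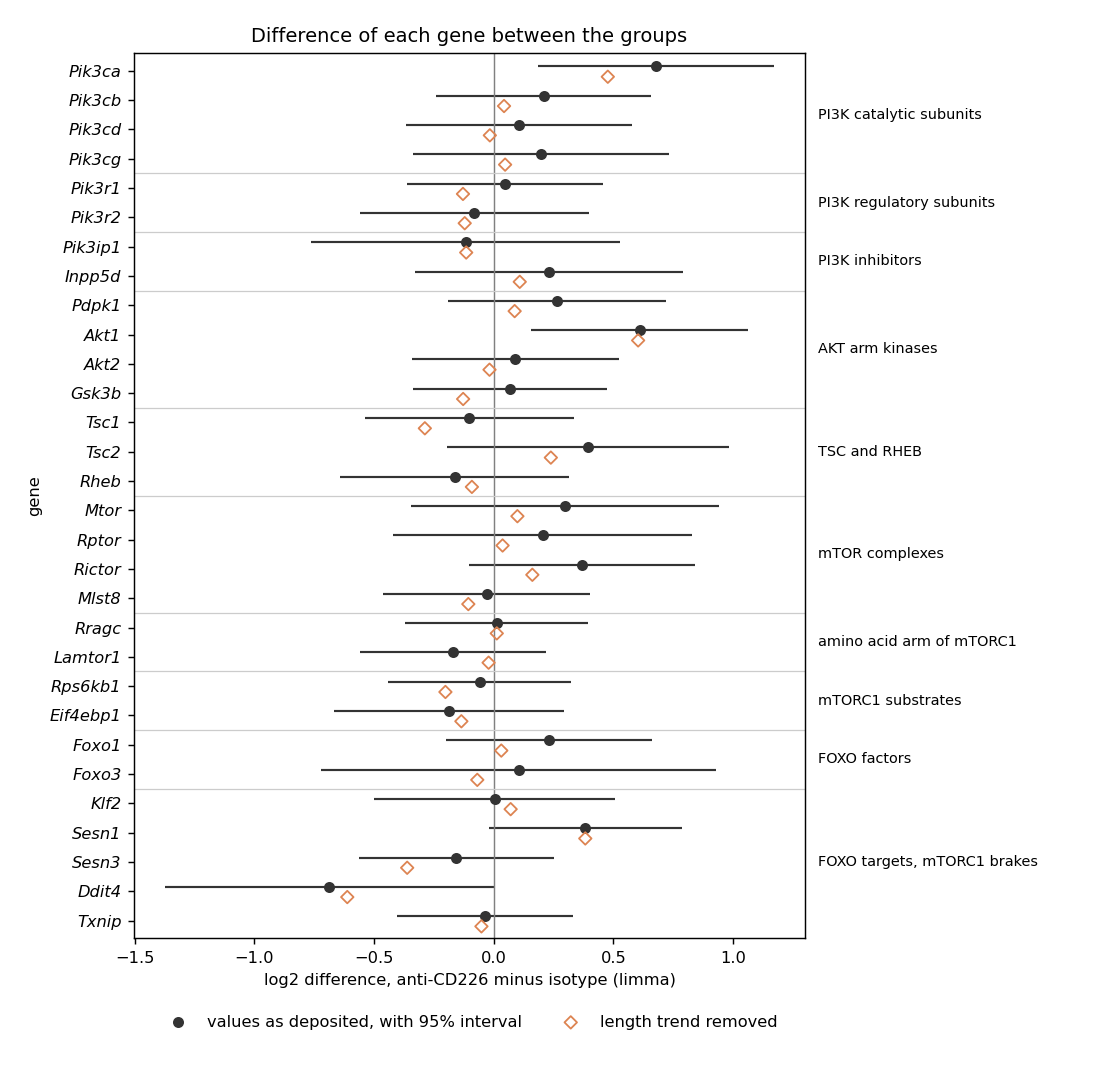
Log2 difference between anti-CD226 and isotype for the 30 genes, with the 95% limma interval (black) and the value after removal of the length trend (orange diamonds). The intervals of Pik3ca and Akt1 lie above 0 before adjustment for the 13010 genes tested, and that of Ddit4 ends at 0.

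Transcript length went with the differences of the 30 genes. The 19 genes with a higher mean had a median transcript length of 6478 bases and the 11 with a lower mean 2795 bases. Across the 30, Spearman's rho between log2 difference and length was 0.51 as deposited and 0.15 with the trend removed, and across all 12716 genes it was 0.43 and 0.0055. These points share the same 4 libraries. The trend was fitted on the same 12716 genes, the 30 among them, so the lower rho after its removal was built in. The same coefficient between a gene's deviation and its length was 0.64 in anti-CD226 replicate 2 over the 30 genes, and -0.47 in isotype replicate 2. Pik3ca, Rictor, Akt1, Sesn1 and Ddit4 had groups that did not overlap on both scales. Pik3cb, Foxo1, Pik3ip1, Lamtor1 and Sesn3 did so only as deposited, and Pdpk1 (anti-CD226 above), Pik3r1, Tsc1 and Mlst8 (anti-CD226 below) only with the trend removed. With the trend removed, the log2 difference of Mtor went from 0.30 to 0.099 and that of Rptor from 0.20 to 0.037. Tsc2 went from 0.39 to 0.24, Pik3cb from 0.21 to 0.043, Sesn3 from -0.16 to -0.36 and Tsc1 from -0.10 to -0.29. Whether length itself sets these differences was not tested.

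**Figure D3:**
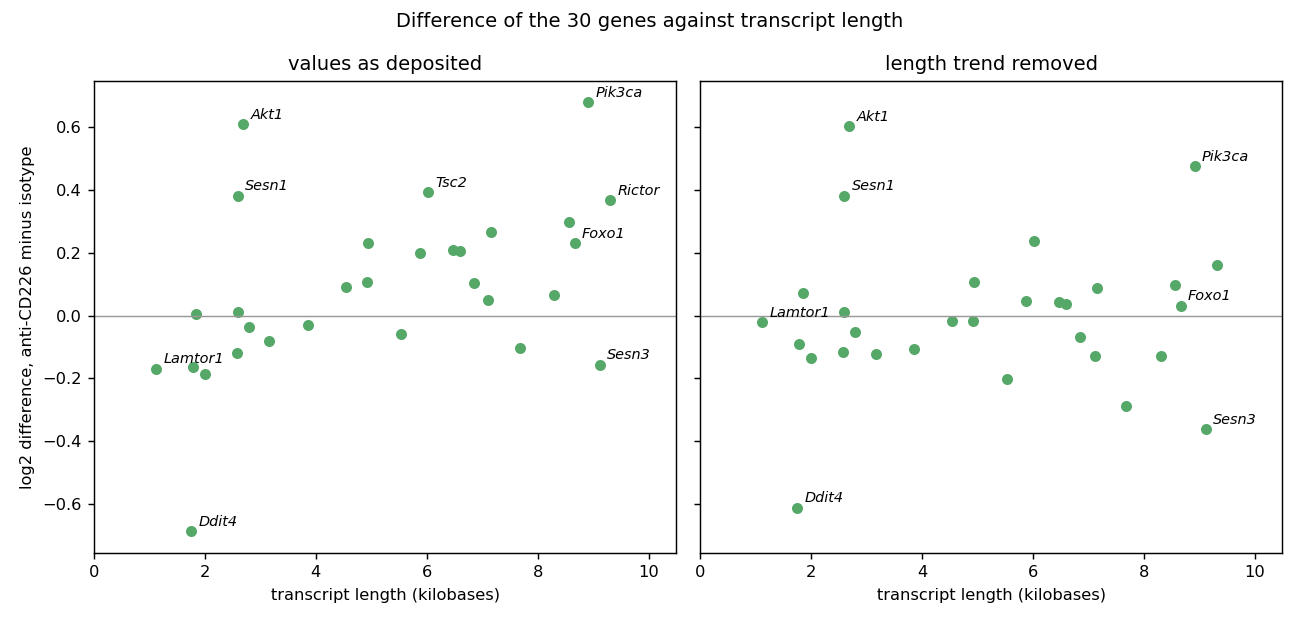
Log2 difference against annotated transcript length for the 30 genes, as deposited (left) and after each library's length trend was removed (right). On the left longer transcripts tend to lie higher, with Akt1, Sesn1 and Ddit4 away from that slope. The long transcripts of Sesn3 (9125 bases) and Tsc1 (7674 bases) have negative differences there, -0.16 and -0.10. On the right rho is 0.15.

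Per kilobase of transcript, Akt1 had the highest level of the 30 genes and Foxo3 the lowest. The mean over the 4 libraries was 1804 ± 477 normalised reads per kilobase for Akt1. Next came Pik3cd with 1112 ± 172, Lamtor1 with 1073 ± 91.8, Eif4ebp1 with 1047 ± 167 and Rheb with 968 ± 151, neighbours that did not differ beyond their SD. Txnip had 708 ± 19.2, the smallest spread relative to its level, Rragc 637 ± 32.4 and Ddit4 361 ± 117. In the middle of the order Sesn1, Pik3r2, Rps6kb1 and Pik3r1 lay between 165 and 180 and were not separable. Of the mTOR complexes, Mlst8 was at 130 ± 10.7, Rptor at 129 ± 32.7, Rictor at 91.0 ± 19.5 and Mtor at 89.2 ± 25.8, the last at the 42.2 percentile of genes tested. At the bottom were Sesn3 with 57.9 ± 4.47, Pik3cb with 45.9 ± 5.07, Tsc1 with 44.4 ± 3.24, Pik3ip1 with 22.7 ± 1.57 and Foxo3 with 14.1 ± 4.45. The order depends on the length used for each gene. With all annotated exons of a gene merged in place of 1 transcript, Rheb had 224 and Lamtor1 373 normalised reads per kilobase, below Txnip with 634 and Inpp5d with 572. Akt1, with 1184, and Foxo3, with 12.8, were still first and last.

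**Figure D4:**
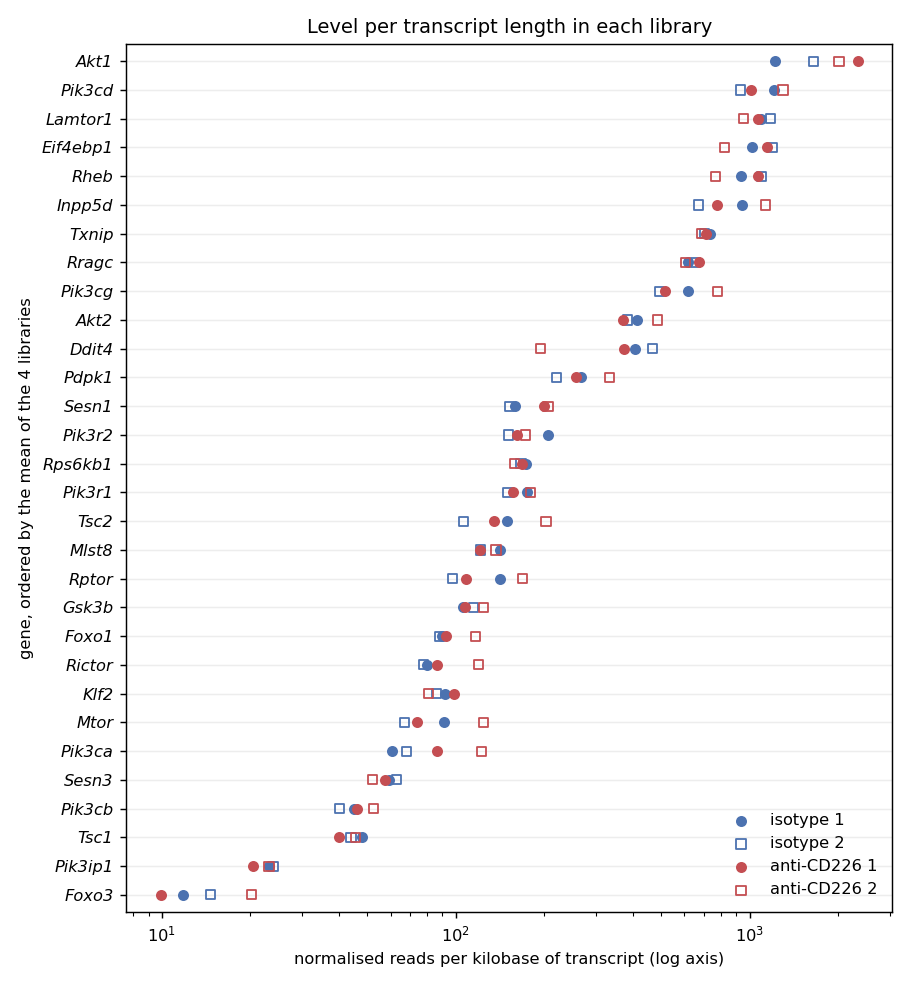
Normalised reads per kilobase of annotated transcript for the 30 genes in each library (log axis), ordered by the mean over the 4 libraries. Akt1 is at the top near 1804 and Foxo3 at the bottom near 14.1, and the spread between libraries is narrow for Txnip and wide for Ddit4.

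The 9 ratios between genes of one role do not depend on a scaling factor of the library, though a length trend can move them. Of them, 3 did not overlap between the groups: Pik3cd to Pik3ca, Tsc1 to Tsc2 and Sesn1 to Sesn3. With 2 libraries against 2, random labels would separate a share of 0.333, so this count is not read as a result. Among single genes, 26.8% of all those tested did not overlap, and ratios of other genes were not computed. Pik3cd exceeded Pik3ca per kilobase 19.9-fold and 13.7-fold under isotype antibody, then 11.6-fold and 10.6-fold under anti-CD226, a log2 change in the ratio of -0.57 (exact permutation p = 0.333, 0.75 when adjusted over the 9 ratios). That change was -0.30 when isotype replicate 1 was left out and -0.84 when replicate 2 was. The other 6 ratios overlapped. Pik3cd to Pik3cg was steady, 1.97-fold and 1.89-fold against 1.96-fold and 1.67-fold, while Rptor to Rictor stood at 1.77 and 1.25 against 1.25 and 1.41.

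**Figure D5:**
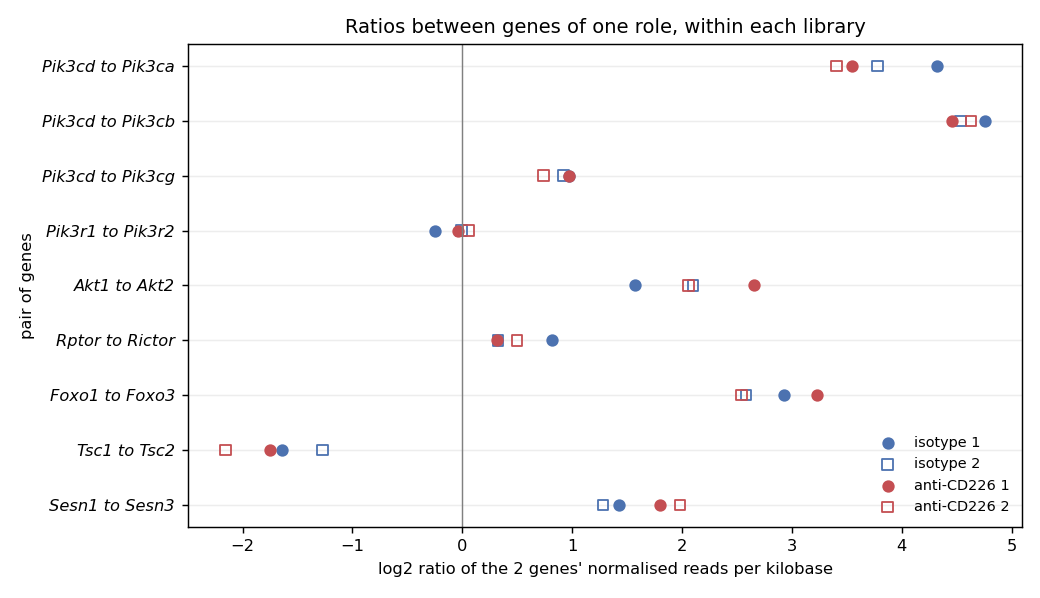
Log2 ratio of normalised reads per kilobase for 9 pairs of genes of one role, within each library; filled and open symbols are replicates 1 and 2. The isotype (blue) and anti-CD226 (red) points separate for Pik3cd to Pik3ca, Tsc1 to Tsc2 and Sesn1 to Sesn3.

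Promoter sequences are shown for 4 genes that carry the letters which the pathway's own transcription factors are known to bind. Windows of Pik3cg and Rheb carry such letters too. They are not shown because they hold 142 and 250 bases annotated as untranslated or coding exon. FOXO factors bind GTAAACA, and TFEB, a factor that mTORC1 keeps out of the nucleus, binds E-boxes with the letters CACGTG. The 250 bases before the start were searched on both strands, and 29 of the 30 genes had an entry in the RefSeq table (GRCm38.p6), with 39 start sites in all. GTAAACA or its reverse complement TGTTTAC was found at 3 of the 39 (Akt1, Txnip and 1 start of Pik3cg), and at 3.17% of 32851 windows of the same length over all genes. CACGTG, which reads the same on both strands, was found at 3 of the 39 (Rheb, Lamtor1 and Rragc), and at 6.02% of all windows. No window of the 30 genes held both motifs. Capitals mark the match, and each sequence runs 5′ to 3′ on the gene's strand and ends just before the annotated start. Akt1 is read from chr12:112674885-112675134 (minus), Txnip from chr3:96557707-96557956 (plus), Lamtor1 from chr7:101905587-101905836 (plus) and Rragc from chr4:123917183-123917432 (plus). The match begins 161, 121, 68 and 112 bases before the start, in that order.
Akt1: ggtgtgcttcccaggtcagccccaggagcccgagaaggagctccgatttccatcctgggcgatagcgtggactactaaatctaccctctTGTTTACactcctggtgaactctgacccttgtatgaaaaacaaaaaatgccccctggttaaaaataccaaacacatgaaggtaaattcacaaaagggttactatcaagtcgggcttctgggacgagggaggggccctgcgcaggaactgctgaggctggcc
Txnip: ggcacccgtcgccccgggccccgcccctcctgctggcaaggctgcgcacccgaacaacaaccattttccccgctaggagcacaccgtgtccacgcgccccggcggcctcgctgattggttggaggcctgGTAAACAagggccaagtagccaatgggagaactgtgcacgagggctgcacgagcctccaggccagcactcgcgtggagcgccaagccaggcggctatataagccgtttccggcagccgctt
Lamtor1: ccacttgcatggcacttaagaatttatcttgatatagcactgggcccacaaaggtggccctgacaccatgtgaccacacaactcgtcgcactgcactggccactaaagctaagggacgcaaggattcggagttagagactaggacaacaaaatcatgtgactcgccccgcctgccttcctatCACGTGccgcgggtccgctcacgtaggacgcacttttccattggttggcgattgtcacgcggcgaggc
Rragc: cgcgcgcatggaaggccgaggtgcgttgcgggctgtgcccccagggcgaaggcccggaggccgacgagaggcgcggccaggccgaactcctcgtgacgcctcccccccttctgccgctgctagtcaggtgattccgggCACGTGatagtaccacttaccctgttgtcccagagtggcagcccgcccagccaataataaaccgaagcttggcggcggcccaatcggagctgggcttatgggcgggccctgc
These are matches of letters, and binding was not measured. Among the 3 genes with the FOXO letters, the log2 difference was 0.61 for Akt1, 0.20 for Pik3cg and -0.037 for Txnip, and among those with an E-box it was -0.16 for Rheb, -0.17 for Lamtor1 and 0.012 for Rragc.

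A wider list of 113 other genes of the pathway was examined beside the 30, of which 102 were tested. Of these, 60 (58.8%) had a higher and 42 a lower mean in anti-CD226, and 0 passed the adjustment (limma). Over all genes tested 51.1% had a higher mean, which is the background for such counts in the lists below. The median log2 difference of the 102 was 0.042 as deposited and -0.0028 with the length trend removed. At an unadjusted p below 0.05 there were 3, all with a higher mean: Larp1, Irs2 and Phlpp1. The background was 2.37% of all genes tested in either direction and 1.55% in that direction. Groups did not overlap in 29 of the 102 (17 above and 12 below), a share of 28.4%, close to the 26.8% of all genes tested.

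Other PI3-kinase subunits and adaptors had a higher mean in 9 of 10 tested, against 51.1% of all genes tested. Their median log2 difference was 0.20 as deposited and 0.12 with the length trend removed. Irs2, an adaptor that links insulin and cytokine receptors to PI3-kinase and a FOXO target itself, stood at 3050 and 2948 under isotype antibody, then 3695 and 4164 under anti-CD226 (limma, unadjusted p = 0.043, adjusted p = 0.98). Its log2 difference was 0.39, or 0.23 with the length trend removed. Gab3 stood at 141 and 131 against 141 and 257, and Pik3c2a, a class II PI3-kinase, at 556 and 386 against 514 and 670. For both genes the groups overlapped, and their log2 differences of 0.48 and 0.34 became 0.049 and 0.15 without anti-CD226 replicate 2. Of lipid phosphatases 9 of 12 had a higher mean, against 51.1% of all genes tested, with a median of 0.065 that became -0.00045 without the length trend. The phosphatases Synj1, Synj2 and Inpp5b had log2 differences of 0.35, 0.39 and 0.16, with groups that overlapped. Leaving out anti-CD226 replicate 2 gave 0.11, 0.11 and 0.049, and leaving out isotype replicate 2 gave 0.17, 0.23 and 0.044.

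In the AKT arm 4 of the 12 other genes tested had a higher mean, against 51.1% of all genes tested. Phlpp1, a phosphatase of AKT, stood at 32.0 and 31.7 under isotype antibody, then 65.9 and 47.4 under anti-CD226, on 29 and 41 reads against 64 and 43. The unadjusted p was 0.045 and the adjusted p 0.98 (limma). Gsk3a, the paralog of Gsk3b, stood at 1272 and 1320 against 1262 and 1026, lower by little in anti-CD226 replicate 1. Its log2 difference of -0.19 became -0.038 without anti-CD226 replicate 2. Of the 12, 33.3% did not overlap (1 above and 3 below), against 26.8% of all genes tested.

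Of 10 further genes of the mTOR complexes and TSC, 4 had a higher mean. Akt1s1, which encodes the mTORC1 inhibitor PRAS40, stood at 225 and 217 under isotype antibody, then 180 and 158 under anti-CD226. Deptor, another mTOR inhibitor, stood at 22.1 and 20.1 against 31.9 and 34.2, on at most 31 reads. Tti1, an mTOR assembly factor, stood at 674 and 574 against 718 and 853, and Mapkap1, the mTORC2 subunit SIN1, at 997 and 804 against 965 and 959. The groups of the first 3 did not overlap, and the unadjusted p of these 4 genes lay between 0.091 and 0.58 (limma). Of the 10, 40% did not overlap (2 above and 2 below), against 26.8% of all genes tested.

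Amino acid sensing genes were split, with 13 of 24 higher and a median of 0.019. Slc38a9, the arginine sensor of the lysosome, stood at 158 and 139 under isotype antibody, then 184 and 223 under anti-CD226. Fnip2, a partner of folliculin, stood at 227 and 178 against 250 and 311, and Wdr24, a subunit of the activating GATOR2 complex, at 490 and 470 against 388 and 360. These 3, named for the smallest p of the list, did not overlap between the groups. Of the 24, 25% did not overlap (4 above and 2 below), against 26.8% of all genes tested. Flcn, folliculin itself, stood at 505 and 584 against 531 and 619, and Sesn2, the third sestrin, at 673 and 484 against 522 and 637, unlike Sesn1 with overlap.

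Of 14 mTORC1 substrates and TFEB genes, 11 had a higher mean, against 51.1% of all genes tested. Their median log2 difference of 0.075 turned to -0.020 without the length trend. Larp1, which holds back translation of ribosomal protein transcripts until mTORC1 acts on it, stood at 992 and 1573 under isotype antibody, then 2897 and 1957 under anti-CD226. This was the order of libraries of Akt1 too, with the highest value in anti-CD226 replicate 1. That order was seen in 2.48% of all genes tested, and it was singled out after the values were seen. The log2 difference of Larp1 was 0.93 (limma, SE 0.27, unadjusted p = 0.0093, adjusted p = 0.98), and 0.60 without isotype replicate 1. Tfeb stood at 223 and 214 against 247 and 253, and Rps6, the ribosomal protein that S6K1 phosphorylates, at 8440 and 9732 against 9890 and 5652.

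Other FOXO factors and targets were level as a list, with 10 of 20 higher and a median of -0.0019. Il7r, the receptor chain by which FOXO1 sustains lymphocytes, stood at 877 and 719 under isotype antibody, then 948 and 916 under anti-CD226. S1pr1, the exit receptor induced by KLF2, stood at 348 and 321 against 353 and 320. Gadd45a and Insr stood at 16.0 and 26.8 against 31.2 and 33.0, and at 122 and 159 against 165 and 183. Bcl6, a repressor, stood at 12.2 and 21.6 against 7.21 and 11.02, and Tcf7, not tested for its low level, between 7.72 and 10.3. Il7r, Gadd45a and Insr (above) and Bcl6 (below) did not overlap between the groups. Of the 20, 45% did not overlap (5 above and 4 below), against 26.8% of all genes tested.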

How the data were processed

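Each deposited value is a normalised signal for 1 gene in 1 library. Named in the submitters' processing notes are DESeq2 (without a version), Partek 10.0, STAR 2.7.8 and build mm10. Per the labels' protocols cDNA came from 10 pg of RNA a sample with a low-input kit. What counted the reads, with which annotation and strand setting: not given in the sources used here. Between 73.4% and 75.1% of a library's values between 0.5 and 1000 steps were whole multiples (tolerance 0.02) of a step of its own, taken as 1 read; too few for a count model, so the deposited signal was tested on the log2 scale, and depth is the total divided by that step. Counting error understates the error of an amplified library. With 174 gene columns checked singly, the rest were assumed to be in that unit.

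The 13010 genes averaging at least 10 were fitted with limma 3.58.1 in R 4.3.3 on log2(value + 1), with a mean-variance trend, two-sided, with Benjamini-Hochberg adjustment over all of them (2 residual and 5.81 prior degrees of freedom). The steps were tested on simulated data. Lengths are those of the longest principal coding transcript in GENCODE M21 (GRCm38), found for 97.3% of genes; the length trend was a lowess (span 0.5) of each library's deviations. Alternatives covered the pseudocount (10), the filter (none or 50), 3 scalings, length, the variance prior, a replicate term and leaving out each library. All 30 genes are named; of the wider lists, genes fixed by name and the 3 of smallest p in each, some of which are not reported here. Members and lists were chosen with earlier results of these data known.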

Additional observations from a re-analysis of the deposited data

How the results depend on the processing

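Direction held for 15 of the 30 genes in all 14 alternatives: Pik3ca, Pik3cb, Pik3ip1, Pdpk1, Akt1, Tsc1, Tsc2, Rictor, Lamtor1, Rps6kb1, Foxo1, Sesn1, Sesn3, Ddit4 and Txnip. The pseudocount turned no sign. The filters, the variance prior and a replicate term leave a gene's log2 difference unchanged in these balanced groups. Those alternatives among the 14 could therefore turn no sign and say nothing about direction. With the length trend removed the log2 difference was -0.018 for Akt2, -0.069 for Foxo3, -0.13 for Gsk3b, -0.016 for Pik3cd, -0.13 for Pik3r1 and -0.017 for the median of the 30, and the log2 ratio of Pik3r1 to Pik3r2 was -0.0073. Klf2 had -0.0030 under equal totals and -0.021 under equal upper quartiles, and Rragc -0.014 under equal upper quartiles and -0.0082 under quantile normalization. The causes were not tested.

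Leaving out 1 library gave 12 to 1633 genes past the threshold over all genes and 0 to 7 among the 30 (without anti-CD226 replicate 1 the highest of both). The number of the 30 with a higher mean ran from 12 to 19 and their median from -0.040 to 0.23. The log2 difference ran from -0.085 to 0.30 for Pik3cd, -0.099 to 0.50 for Pik3cg, -0.057 to 0.155 for Pik3r1, -0.31 to 0.14 for Pik3r2, -0.042 to 0.51 for Inpp5d, -0.10 to 0.28 for Akt2, -0.038 to 0.17 for Gsk3b and -0.40 to 0.075 for Rheb. It ran from -0.079 to 0.67 for Mtor, -0.12 to 0.53 for Rptor, -0.14 to 0.082 for Mlst8, -0.065 to 0.089 for Rragc, -0.43 to 0.053 for Eif4ebp1, -0.40 to 0.61 for Foxo3 and -0.14 to 0.15 for Klf2. The log2 ratio ran from -0.22 to 0.47 for Foxo1 to Foxo3, -0.21 to 0.0066 for Pik3cd to Pik3cb, -0.21 to 0.022 for Pik3cd to Pik3cg and -0.41 to 0.084 for Rptor to Rictor.

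The replicate block, from the numbers in the sample titles, gave 20 genes past the threshold over all genes and 0 of the 30. The deviations of same-numbered libraries from their group means had a correlation of -0.24 over 13010 genes, so the labels' numbers are not taken to pair libraries. A crossed pairing, added after seeing the data, gave 61 genes and 1 of the 30. Depth limits Pik3ip1, Foxo3 and Klf2 most, at 51 to 205 reads a library.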
